A study of Mus musculus with 13 samples.

Results

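Cycling cells of mouse abdominal epidermis were taken as the cells that held at least 5 unique molecular identifiers (UMIs, each standing for 1 captured RNA molecule) of Top2a, Mki67, Ube2c, Birc5, Cenpa and Cdk1 together. They numbered 1920 of 36927 kept cells, a kept cell having at least 200 detected genes and at most 10% mitochondrial UMIs. There were 417 such cells among 6491 of non-pregnant mice (NP), 547 among 12853 at gestation day 16 (dpc16), 446 among 9031 at day 6 post partum (dpp6) and 510 among 8552 at day 40 post partum (dpp40). Each state was 1 library of randomly captured epidermal cells, made with the 10x Chromium 3′ v2 kit. All mice of the single-cell libraries were C57BL/6 carrying Tbx3creERT2 and R26H2B EGFP and all had received tamoxifen, the NP mice for 3 days and the others during pregnancy. In this system a tamoxifen-dependent Cre expressed from Tbx3 switches on a nuclear EGFP in cells that express Tbx3. A second data set held 9 bulk libraries of sorted CD49f+ CD34- interfollicular basal cells, with 3 libraries each of Tbx3 cKO mice at dpc16 (K14creERT2;Tbx3flox/flox, where Cre is driven by the keratin 14 promoter), wild type (WT) mice at dpc16 and WT NP mice. Not given in the sources used here are the ages of the mice, tamoxifen treatment of the bulk WT mice and the part of Tbx3 that is deleted.

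The epidermis is renewed by division of keratinocytes in its basal layer, which carry the keratins Krt5 and Krt14. Cells that leave this layer stop dividing and switch to Krt1 and Krt10 in the spinous layer, then to loricrin and other cornified envelope genes in the granular layer. A dividing cell copies its DNA in S phase, with a set of genes under E2F factors, and then raises a second set for G2 and mitosis, which the B-MYB, FOXM1 and MuvB proteins switch on at a short promoter element called CHR (cell cycle genes homology region), often with CCAAT boxes nearby.

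The 6 genes of the rule all belong to the second set. Top2a untangles the copied DNA strands, Cdk1 is the kinase that drives entry into mitosis, Ube2c loads ubiquitin for the anaphase-promoting complex (APC/C), Birc5 (survivin) belongs to the chromosomal passenger complex, Cenpa is the histone H3 variant of centromeres and Mki67 coats mitotic chromosomes. Promoters are shown for the 4 that hold a CHR match within the 40 bases before the start. The other two have theirs farther out, with a match 220 bases before the start and no CCAAT box in Birc5 and matches 116 and 98 bases before it in Mki67. Each stretch holds the 120 bases before the transcription start, read 5′ to 3′ on the gene's strand, from RefSeq on GRCm38.p6. Capitals mark the CHR letters, which are TTTGAA on either strand. Where that element lies on the opposite strand it reads TTCAAA here. The second form of the element, equal on both strands, is TTTAAA, and this is marked too. The CCAAT box is also in capitals. On the opposite strand the box reads as ATTGG instead. The positions are chr10:69352913-69353032 on the minus strand for Cdk1, chr2:164769809-164769928 on the plus strand for Ube2c, chr11:99024190-99024309 on the minus strand for Top2a and chr5:30666766-30666885 on the plus strand for Cenpa.
Cdk1: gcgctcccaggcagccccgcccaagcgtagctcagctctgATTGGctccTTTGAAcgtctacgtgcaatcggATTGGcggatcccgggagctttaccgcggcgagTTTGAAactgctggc
Ube2c: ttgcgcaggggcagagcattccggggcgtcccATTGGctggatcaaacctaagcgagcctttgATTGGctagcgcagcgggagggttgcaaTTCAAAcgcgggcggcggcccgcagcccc
Top2a: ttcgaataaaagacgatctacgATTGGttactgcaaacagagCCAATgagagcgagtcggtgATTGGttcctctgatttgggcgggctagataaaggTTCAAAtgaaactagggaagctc
Cenpa: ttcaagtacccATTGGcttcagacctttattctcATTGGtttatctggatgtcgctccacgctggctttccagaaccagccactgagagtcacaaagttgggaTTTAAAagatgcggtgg

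In these 4 promoters a CHR match begins 15 (Cdk1), 29 (Ube2c), 23 (Top2a) and 17 (Cenpa) bases before the start, with CCAAT matches upstream of it. Over windows of 300 bases (250 before to 50 after the start), a CHR match on either strand was present in 6 of 6 rule genes and in 28 of 36 promoters of the G2/M list, or 77.8%. It was present in 6 of 28 promoters of the S phase list, or 21.4%, and in 27.6% of all 32851 mouse promoters. A match within the 40 bases before the start was less common, in 5 of 36 G2/M promoters (13.9%), 1 of 28 S phase promoters (3.57%) and 3.9% of all promoters. CCAAT boxes did not separate the 2 lists, with 72.2% of G2/M and 75% of S phase promoters, against 37.4% of all promoters. Of the list members, 41 of 48 G2/M genes and 31 of 43 S phase genes matched the promoter table, and the counts take those with a single window. A match is only a run of letters in the window and was not tested as a binding site.

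Because measured values chose the cells, the levels of these genes, and of any gene in cycling against other cells, describe the selection and carry no test. With 1 library per state, differences between states have no replicate check either. The intervals given are 95% intervals, exact binomial for shares of cells and exact Poisson for summed counts, and they cover counting error only.

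Cycling cells were 6.42% (5.84 to 7.05) of kept cells in NP, 4.26% (3.91 to 4.62) at dpc16, 4.94% (4.50 to 5.41) at dpp6 and 5.96% (5.47 to 6.49) at dpp40. The share was lowest in late pregnancy, and its interval there did not reach those of NP and dpp40, while the intervals of dpc16 and dpp6 met, as did those of NP and dpp40. Cycling cells held more UMIs than the rest. Their median was 7012, 6702, 8693 and 8660.5 UMIs in NP, dpc16, dpp6 and dpp40, against 4616, 4377, 4908 and 5545 UMIs in the other cells. The rule is a fixed count and so favours deeply captured cells, and its part in these medians was not tested. Cells at exactly 5 UMIs of the 6 genes had medians of 4689, 5268, 6130.5 and 5612 UMIs. With 10 or more the medians were 7446.5, 7102, 9237 and 9177 UMIs. Depth also differed between libraries, so every cell was thinned to 3000 UMIs, which left out 396, 1036, 944 and 0 shallower cells. The share was then 5.07%, 3.33%, 3.80% and 4.49%, in the same order. With at least 10 UMIs in place of 5, dpp40 stood first at 4.81%, ahead of NP at 4.71%, with dpp6 at 3.84% and dpc16 still lowest at 3.06%. When cells were instead counted by at least 5 UMIs of 43 S phase genes, the order was another one, with 15.8% in NP, 17.9% at dpc16, 19.3% at dpp6 and 24.8% at dpp40. Only 29.1%, 16.2%, 20.3% and 18.4% of the cells found that way were cycling cells by the 6-gene rule. Of the cycling cells, 71.5%, 68.2%, 79.1% and 76.5% were among them. The S phase count was made on unthinned cells, and dpp40 had the highest median depth among cells outside the rule. The part of depth in its order was not tested.

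**Figure D1:**
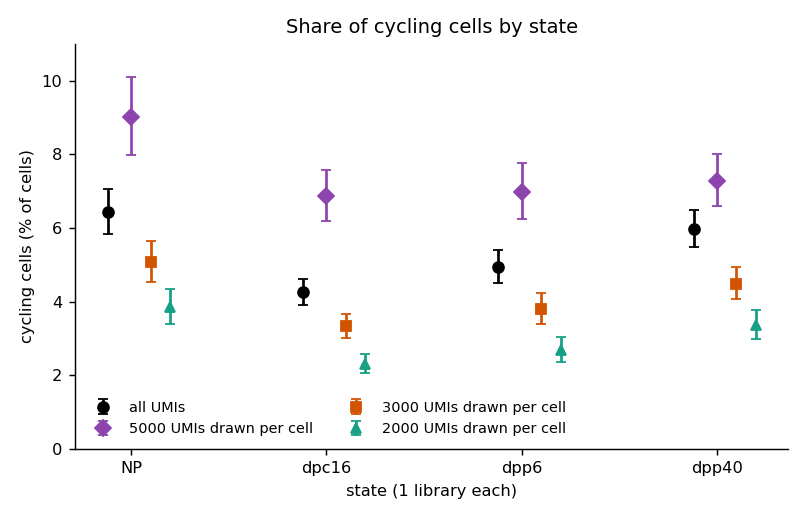
Share of cycling cells (percent of kept cells) in the NP, dpc16, dpp6 and dpp40 libraries, with all UMIs and with 5000, 3000 or 2000 UMIs drawn per cell; bars are exact 95% binomial intervals. In each of the 4 series the NP point is highest and the dpc16 point lowest, for example 6.42% and 4.26% with all UMIs.

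The libraries held 40450455 (NP), 74804602 (dpc16), 56849153 (dpp6) and 63492242 UMIs (dpp40), of which the cycling cells held 3456228, 4253229, 4109504 and 4855676. The study states 6485, 12846, 9029 and 8552 cells, against 6635, 12984, 9351 and 8716 barcodes in the files. Between 70 and 147 barcodes recurred in any pair of libraries, and at most 2 of them were cycling cells in both. Median mitochondrial UMIs of cycling cells lay between 2.60% and 3.30%, against 2.82% to 3.33% in the other cells. Basal keratinocyte markers reached 5 UMIs in 99.3% to 100% of cycling cells and in 98.5% to 99.7% of the others, so this measure does not tell keratinocytes from other cells.

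The 6-gene sum had a median of 19 UMIs per cycling cell in NP, 17 at dpc16, 22 at dpp6 and 26 at dpp40, and a maximum of 79, 68, 89 and 89. Just inside the threshold, 27, 39, 36 and 29 cells held exactly 5 UMIs, and just outside it 29, 73, 46 and 41 cells held 4. The other genes of the G2/M list went up in steps across it, with 3438, 3613, 2578 and 2452 CPM (a gene's or list's UMIs per 1000000 UMIs of the cells) in cells at 4 UMIs. Cells at 5 UMIs held 4197, 4824, 3756 and 3900 CPM of these genes and cells with 10 or more held 11738, 10932, 11193 and 13149 CPM, against 1125 to 1275 CPM in cells with none. The threshold therefore cuts a continuous range, with a few cells of similar content on both sides.

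Top2a was held at 490, 418, 501 and 479 CPM in the cycling cells of NP, dpc16, dpp6 and dpp40, against 6.77, 8.25, 6.96 and 7.02 CPM in the other cells. Ube2c stood at 707, 697, 714 and 782 CPM in cycling cells, against 6.75, 5.63, 4.97 and 6.10 CPM in the others. For Cenpa the levels were 616, 582, 684 and 699 CPM, against 12.7, 10.4, 10.9 and 10.4 CPM. Each of the 3 genes was thus concentrated in the chosen cells to about the same degree in every state. Birc5 reached 413, 393, 416 and 407 CPM in cycling cells, Cdk1 309, 315, 314 and 353 CPM, and Mki67 192, 152, 216 and 187 CPM. Mki67 was detected in 72.9%, 64.5%, 79.1% and 77.1% of cycling cells and Cenpa in 93.8%, 88.8%, 88.3% and 93.1%. Outside the rule 1.51% to 6.55% of cells held a UMI of any one of the 6 genes. Among those of them with at least 50 UMIs of granular markers, which have 12465 to 15480 UMIs at the median, 0% to 12.8% did. Shares at that level cannot be told from background by this measure, and depth was not matched between the 2 groups.

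Genes of mitosis that the rule did not use went with it. Of lists of cell cycle genes grouped by role, the following counts give the members at least 2-fold higher in cycling than in other cells in all 4 libraries. Over all 12500 genes with 20 UMIs in each library, 4.38% were so and 1.37% were 2-fold lower in all 4. The count was 19 of 19 for centromere and kinetochore genes, 20 of 20 for spindle and kinesin genes, 10 of 10 for cytokinesis genes, 10 of 11 for chromosome condensation genes and 47 of 48 for the G2/M list. The rule and these lists read the same cells, so the counts say what kind of cell was chosen and nothing more.

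At the centromere, Cenpf, a large kinetochore protein, was held at 405, 325, 342 and 356 CPM in the cycling cells of NP, dpc16, dpp6 and dpp40, against 4.16, 3.84, 3.78 and 3.07 CPM in the others. Cdca8 (borealin), which works with Birc5 in the passenger complex, was held at 282, 264, 296 and 333 CPM, and Spc24, of the microtubule-binding Ndc80 complex, at 191, 171, 221 and 210 CPM. Cenpm, of the constitutive centromere network, was held at 145, 132, 165 and 150 CPM. The condensin ATPase Smc4 stood at 439, 402, 409 and 472 CPM, against 42.2, 39.9, 39.8 and 33.6 CPM, and its partner Smc2 at 185, 188, 189 and 181 CPM, against 6.83, 11.2, 8.65 and 8.80 CPM. The DNA-bending proteins Hmgb2 and Hmgb1 were abundant in both classes and still higher in cycling cells, Hmgb2 at 2233, 1982, 2169 and 2573 CPM, against 196, 189, 177 and 202 CPM.

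Among spindle genes, Stmn1 (stathmin, a regulator of microtubule dynamics) was held at 2074, 1805, 2411 and 2281 CPM in cycling cells, against 171, 152, 223 and 182 CPM in the others. The tubulins Tubb5, Tuba1b and Tubb4b were present in all cells and 2.39- to 7.73-fold higher in cycling cells. For cytokinesis, Prc1, which bundles the midzone of the spindle, stood at 239, 179, 202 and 259 CPM, against 10.7, 8.92, 8.52 and 9.30 CPM, and the cleavage proteins Racgap1, Anln and Kif23 had other-cell levels of 3.11 CPM at most. Of the APC/C group, the activator Cdc20 stood at 329, 317, 337 and 449 CPM, against 4.63, 4.94, 3.43 and 4.83 CPM. The E2 enzyme Ube2s and the Cdk-binding proteins Cks2 and Cks1b were also higher in all 4 libraries, and 7 of 10 APC/C members were.

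Cyclins split by phase. Ccnb1, the mitotic partner of Cdk1, was held at 219, 229, 234 and 285 CPM in the cycling cells of NP, dpc16, dpp6 and dpp40, against 2.62, 3.28, 2.40 and 2.91 CPM in the others. Ccnb2 and Ccna2 followed, Ccna2 at 160, 136, 181 and 198 CPM, against 1.38, 1.61, 1.11 and 1.54 CPM. The G1 cyclin Ccnd2 ran the other way: it stood at 132, 214, 294 and 211 CPM in cycling cells, against 273, 438, 410 and 399 CPM in the others, a log2 difference of -1.04, -1.03, -0.48 and -0.92. In all, 6 of 9 cyclins were 2-fold higher in every library, and the 3 that were not were the D cyclins Ccnd1, Ccnd2 and Ccnd3.

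Aurkb and Aurka, the mitotic Aurora kinases, had at most 1.25 CPM in other cells and 59.0 to 104 CPM in cycling cells. Cdk4, the partner of D cyclins, was nearly level between the classes in NP, dpc16 and dpp40 at 115, 124 and 121 CPM, against 93.4, 106 and 106 CPM, but stood at 236 CPM in dpp6 cycling cells, against 119 CPM. The phosphatase Cdc25b, which activates Cdk1, was 3.24- to 4.84-fold higher in cycling cells, and 13 of 18 kinases and phosphatases passed the fold in every library. Among transcription factors 7 of 14 did, with Foxm1 at 34.1, 29.2, 38.2 and 43.7 CPM, against 0.61, 0.61, 0.90 and 0.59 CPM, and E2f8, a repressor of the E2F program, at 18.8 to 25.1 CPM, against 0.72 to 1.07 CPM. Myc was lower in cycling cells in each library, at 31.0, 41.1, 36.7 and 52.3 CPM, against 54.4, 60.4, 74.8 and 79.6 CPM, while Rb1, the brake on E2F, was 1.24- to 1.71-fold higher.

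Inhibitors of the cyclin-dependent kinases were not uniformly low. Cdkn2d (p19) was held at 225, 182, 197 and 254 CPM in cycling cells, against 22.7, 17.0, 24.5 and 25.9 CPM in the others, and Cdkn2c (p18) at 129, 111, 131 and 117 CPM, against 17.5, 14.3, 14.4 and 12.9 CPM. Cdkn3, a phosphatase of Cdk1 and Cdk2, was also high, and 4 of 7 measured members passed the fold. Cdkn1a (p21), the target of p53, was lower in cycling cells at 286, 282, 211 and 308 CPM, against 326, 344, 346 and 357 CPM.

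Genes of DNA replication stood out less than those of mitosis. The fold was passed in every library by 28 of 43 S phase genes, 13 of 25 licensing and fork genes and 6 of 9 nucleotide supply genes. Tk1, the thymidine kinase, stood at 112, 114, 160 and 115 CPM in cycling cells, against 5.95, 10.6, 8.54 and 7.83 CPM, and Dut, the dUTPase, at 142, 194, 261 and 186 CPM, against 28.8, 55.8, 50.1 and 46.7 CPM. The licensing inhibitor Gmnn, the ligase Lig1 and the thymidylate synthase Tyms were likewise higher in cycling cells in each library. Pcna, the sliding clamp of the replication fork, differed less, at 27.8, 49.4, 84.9 and 50.9 CPM, against 18.8, 27.1, 32.2 and 30.3 CPM. The histone stem-loop binder Slbp, the reductase subunit Rrm1, the clamp loader subunit Rfc2 and the pyrophosphatase Dctpp1 were 1.80- to 7.20-fold higher.

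Within Krt5+Krt14-dominant cells, cycling cells were compared with the rest to see which genes outside every cell cycle list set them apart. Of 9391 genes with at least 100 UMIs, 3.81% were 2-fold higher in cycling cells in all 4 libraries and 0.98% were 2-fold lower, while 119 of 166 listed cell cycle genes were higher. The 12 highest unlisted genes were Hist1h2ap, Mxd3, Esco2, Aspm, Pbk, Iqgap3, Ska1, Sapcd2, Neil3, Spag5, Cdca5 and 2810417H13Rik. Mxd3, a partner of MAX, was held at 108, 59.7, 89.4 and 89.9 CPM in these cycling cells, against 0.68, 0.82, 0.77 and 0.53 CPM. Esco2 and Cdca5 (sororin) act on cohesin, Aspm, Ska1 and Spag5 (astrin) on the spindle, Pbk is a mitotic kinase and Neil3 a DNA glycosylase, so most of the 12 have known roles in division. The transcript 2810417H13Rik was held at 344, 432, 664 and 333 CPM, against 5.26, 15.8, 16.5 and 9.78 CPM. Hist1h2ap encodes a core histone that shares nearly all of its sequence with other H2A copies, and such messages mostly lack the poly(A) tail used for capture, so its counts are uncertain.

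The 12 lowest were Fa2h, Smpd3, Cidea, Btc, Lce1m, Lce3c, Elovl3, Lce1a2, Lce1h, Spns2, Serpina3j and Lce1a1. Btc, which encodes the EGF receptor ligand betacellulin, was held at 3.10, 0.85, 3.68 and 3.20 CPM in cycling cells, against 33.0, 20.1, 27.0 and 28.2 CPM in the other Krt5+Krt14-dominant cells. Lce1m, a late cornified envelope gene, stood at 246, 102, 119 and 199 CPM, against 1238, 1078, 1534 and 1765 CPM. Lce1a1, Lce1a2, Lce1h and Lce3c were lower in each library too. Of these, Lce3c rested on 0, 2, 2 and 3 UMIs in the cycling cells and Lce1h on 11, 8, 8 and 14, so their folds are imprecise. Fa2h, Cidea and Elovl3, genes of sebaceous lipid synthesis, were lower in cycling cells of NP, dpp6 and dpp40. At dpc16 Cidea stood at 3.96 CPM, against 7.09 CPM, but Fa2h at 5.37 CPM, against 5.19 CPM, and Elovl3 at 5.94 CPM, against 3.43 CPM. In that library 1 cycling cell carried 182 UMIs of sebaceous markers, and the part of such cells in these 3 genes was not tested.

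Keratins set the cycling cells by layer. A cell with at least 10 UMIs of Krt5, Krt14, Krt1 and Krt10 was called Krt5+Krt14-dominant where the first 2 made up 0.5 or more of the 4. Of 408, 536, 412 and 504 cycling cells with enough keratin in NP, dpc16, dpp6 and dpp40, 335, 496, 385 and 457 were Krt5+Krt14-dominant, or 82.1% (78.0 to 85.7), 92.5% (89.98 to 94.6), 93.4% (90.6 to 95.6) and 90.7% (87.8 to 93.1). The remaining 73, 40, 27 and 47 were Krt1+Krt10-dominant, and 9, 11, 34 and 6 cycling cells had too few keratin UMIs to be placed. Cells near the boundary, with a fraction of 0.4 to 0.6, numbered 23, 26, 11 and 20. As a share of its own class, cycling cells made up 4.64% (3.66 to 5.80) of Krt1+Krt10-dominant cells in NP, 1.41% (1.01 to 1.92) at dpc16, 1.76% (1.16 to 2.55) at dpp6 and 2.32% (1.71 to 3.08) at dpp40. For Krt5+Krt14-dominant cells the shares were 7.45%, 5.14%, 5.70% and 7.28%.

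Along the keratin fraction the libraries differed from bin to bin. In the bin of fraction 0.2 to 0.3, 28 of 210 NP cells were cycling, or 13.3%, where the lowest library had 1.87%. After thinning to 3000 UMIs this bin held 8 of 218 NP cells, or 3.67%. With all UMIs NP was also highest between 0.3 and 0.4, at 5.49%, and between 0.4 and 0.5, at 10%. Not every mixed bin had NP on top. Between 0.5 and 0.6 NP had 4.86%, with 7.14% at dpc16. Between 0.7 and 0.8 it had the lowest share, 2.73%, with 3.28% to 9.27% in the other libraries. At the ends of the scale, 0.25% to 1.33% of cells cycled below a fraction of 0.1 and 5.22% to 8.68% above 0.9. Above 0.9 the NP share of 8.68% (7.68 to 9.77) lay clear of dpc16 at 5.50% (4.98 to 6.06) and dpp6 at 5.22% (4.63 to 5.87). There dpp40 stood at 7.85% (7.04 to 8.72). Thinning reduced the Krt1+Krt10-dominant cycling cells to 29, 12, 7 and 19, or 1.98% (1.33 to 2.83), 0.44% (0.23 to 0.78), 0.49% (0.20 to 1.01) and 0.998% (0.60 to 1.56) of that class, against 6.71%, 4.16%, 3.62% and 5.67% of the Krt5+Krt14-dominant class. The NP share stayed above the dpc16 and dpp6 intervals in both classes.

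**Figure D2:**
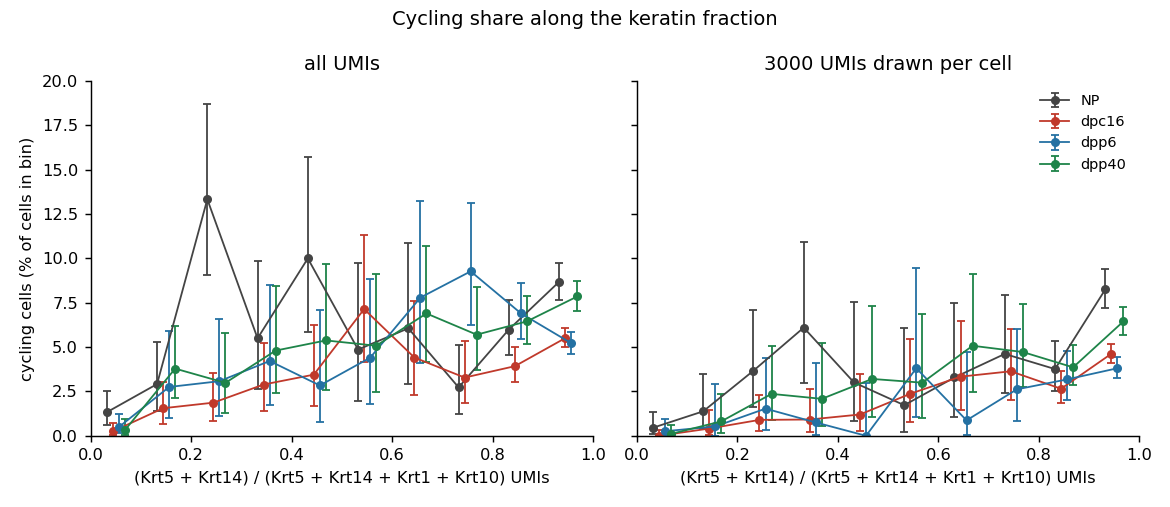
Share of cycling cells (percent of the cells in a bin) along the fraction of Krt5+Krt14 in the UMIs of Krt5, Krt14, Krt1 and Krt10, by state, with all UMIs (left) and 3000 UMIs drawn per cell (right); bars are exact 95% binomial intervals. Few cells cycled at the low end, and the NP value of 13.3% at a fraction of 0.2 to 0.3 was 3.67% after thinning.

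The Krt1+Krt10-dominant cycling cells carried both programs at once. Their spinous gene Krtdap stood at 15166, 10993, 9142 and 13561 CPM in NP, dpc16, dpp6 and dpp40, against 961, 804, 628 and 978 CPM in Krt5+Krt14-dominant cycling cells. Krt77, Sbsn, Mt4 and Dsg1a were likewise higher, with log2 differences of 2.37 to 4.56 over the 4 libraries, as were Notch3 (1.76 to 3.46) and Grhl3 (2.49 to 2.87), a factor of late differentiation. Basal genes were lower as a list, by -0.96 to -0.72 on the log2 scale over the 4 libraries, and Krt15, a keratin of basal cells, by -0.93 to -0.38. Other basal genes differed less: Col17a1 differed by -0.08 to 0.13 on the log2 scale, Itga6 by -0.31 to -0.02 and Trp63, the master factor of basal keratinocytes, by -0.01 to 0.47. The 6-gene sum was lower than in Krt5+Krt14-dominant cycling cells, at 1067, 833, 1476 and 1222 CPM, against 3558, 2870, 2948 and 3214 CPM, and Cdkn1a was higher by 0.45 to 1.24. The summed immediate early genes differed by -1.58 to -0.85.

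Their depth and doublet scores also differed. Krt1+Krt10-dominant cycling cells had a median of 14274, 15751, 12216 and 17066 UMIs, against 6511, 6587, 8702 and 8472 UMIs in Krt5+Krt14-dominant cycling cells, and 7417, 7922, 7950 and 8503 UMIs in Krt1+Krt10-dominant cells outside the rule. The doublet caller placed no cell above its own threshold in any library and so removed none. Among the 6% of cells with the highest doublet score were 15 of 73, 17 of 40, 11 of 27 and 14 of 47 of the Krt1+Krt10-dominant cycling cells, or 20.5%, 42.5%, 40.7% and 29.8%. Of Krt5+Krt14-dominant cycling cells 10.7%, 12.1%, 10.4% and 12% were there, and of Krt1+Krt10-dominant cells outside the rule 7.13%, 7.73%, 6.57% and 5.77%. The part of captured pairs of a basal dividing and a spinous cell in this class was not tested.

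Cycle phase was compared through the balance of the 2 sets of genes. Of the UMIs of both lists in cycling cells, the S phase list made up 11.7% in NP, 13.9% at dpc16, 16.5% at dpp6 and 11% at dpp40. Cycling cells in which it made up over 30% numbered 38 or 9.11% (6.53 to 12.3) in NP, 91 or 16.6% (13.6 to 20.03) at dpc16, 103 or 23.1% (19.3 to 27.3) at dpp6 and 52 or 10.2% (7.71 to 13.2) at dpp40. In this share of unthinned cells, dpp6 and dpc16 thus lay above NP and dpp40 with no overlap of intervals. In cells thinned to 3000 UMIs, cycling cells held a mean of 4.95, 5.07, 6.03 and 4.97 S phase UMIs and 41.3, 36.4, 39.4 and 44.9 G2/M UMIs. At that depth 63.8% (58.1 to 69.1), 61.1% (56.1 to 65.9), 68.4% (62.9 to 73.6) and 61.7% (56.7 to 66.6) of them held at least 3 S phase UMIs. These intervals overlapped, and dpc16 was lowest.

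At dpp6 the DNA replication program of cycling cells was higher than in NP, while the mitotic lists lay closer to it. The summed S phase list differed by 0.56 (0.51 to 0.61) on the log2 scale, the licensing and fork list by 0.66 and the nucleotide supply list by 0.66, against -0.02 for G2/M, 0.00 for centromere and kinetochore genes, -0.12 for cytokinesis and 0.16 for spindle genes. Of all 6529 genes with at least 100 UMIs in the 2 groups of cycling cells, 306 or 4.69% were past 2-fold at dpp6, with 2.28% higher and 2.4% lower. Past 2-fold higher were 7 of 38 S phase genes tested, with 36 of 38 above 0 and a median of 0.49, against a median of 0.04 over all genes tested. The 7 were Pcna, Mcm2, Ung, Gins2, Mcm6, Rrm2 and Chaf1b. Pcna had 349 UMIs at dpp6, against 96 in NP, a log2 difference of 1.61, and Ung, a uracil-DNA glycosylase, 124 against 18 UMIs, a difference of 2.53. The helicase subunits Mcm2, Mcm3 and Mcm6 differed by 1.13, 1.5 and 1.34, and Gins2, of the same helicase, by 1.08. The replication licensing factor Cdt1 (1.03) and the reductase subunit Rrm2 (1.10) also passed the fold.

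Of the regulators tested, 2 of 7 cyclins, 2 of 10 transcription factors and 1 of 16 kinases and phosphatases were past 2-fold higher at dpp6, and none was past it lower. E2f1, an activator of replication genes, held 99 UMIs at dpp6, against 17 in NP, a log2 difference of 2.29. Ccnd1 held 215 against 65 UMIs (1.48), Ccnd2 1210 against 457 (1.15) and Cdk4 971 against 399 (1.03), and the factor Mybl2 (B-MYB) 76 against 25 (1.35). In the cells outside the rule the D cyclins differed less, by 0.36 for Ccnd1 and 0.59 for Ccnd2, and the S phase list by 0.36. Follicle-marker cells were those with at least 5 UMIs of bulge, outer root sheath or hair matrix markers, with upper follicle markers not counted. At dpp6 182 of 446 cycling cells were such cells, against 79 of 417 in NP. Without them E2f1 differed by 2.95 on 51 against 8 UMIs, Ccnd1 by 1.07, Ccnd2 by 1.2 and Mybl2 by 1.45, but Cdk4 by 0.51. The S phase list then differed by 0.36, the licensing list by 0.48 and the G2/M list by -0.03. Within Krt5+Krt14-dominant cycling cells the S phase list stood at 1643, 1659, 2067 and 1590 CPM in NP, dpc16, dpp6 and dpp40.

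At dpc16 and dpp40 the replication lists lay closer to NP than at dpp6, and at dpp40 most mitotic lists lay farther above it. On the log2 scale the dpc16 S phase list differed from NP by 0.16 and the G2/M list by -0.12, with 6 of 48 members above 0, while cytokinesis genes differed by -0.22 and kinetochore genes by -0.20. At dpp40 the G2/M list stood 0.21 above NP with 44 of 48 members above 0, spindle genes 0.27 with 20 of 20 above 0, cytokinesis genes 0.23 and cyclins 0.43, against 0.42 for cyclins at dpp6. No S phase or G2/M gene passed 2-fold at dpc16 or dpp40. In cells outside the rule the G2/M list differed from NP by 0.18 at dpc16 and 0.10 at dpp40.

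**Figure D3:**
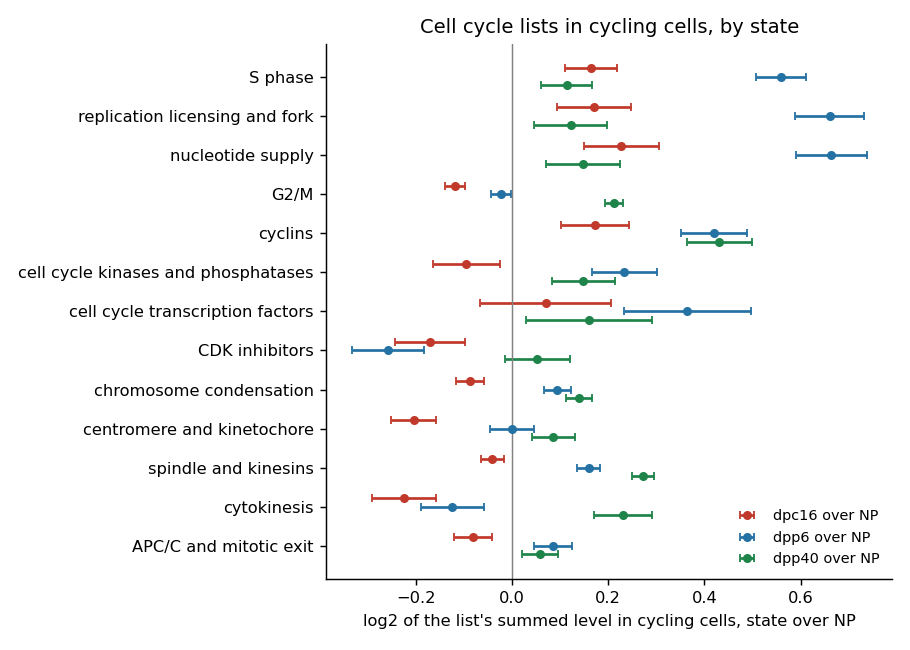
Difference in the summed level of each cell cycle list in cycling cells (log2 of CPM, state over NP) at dpc16, dpp6 and dpp40; bars are 95% counting intervals. The dpp6 points for S phase (0.56), licensing (0.66) and nucleotide supply (0.66) lie right of those of the other states, and the G2/M points lie between -0.12 and 0.21.

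Beyond the cycle, dpc16 cycling cells differed from NP cycling cells in genes of hormone response. Of 6432 genes with at least 100 UMIs, 118 or 1.83% were past 2-fold, 52 higher (0.808%) and 66 lower (1.03%). Of 11 tested genes of the hormone list 3 were past 2-fold higher, with a summed difference of 0.55, against 0.35 in the cells outside the rule. Pyy, which encodes the peptide hormone YY, was held at 21.4, 159, 15.6 and 4.94 CPM in the cycling cells of NP, dpc16, dpp6 and dpp40, and at 25.6, 115, 92.7 and 12.5 CPM in the other cells. Socs2, a feedback inhibitor of growth hormone and prolactin signalling, stood at 4.34, 35.5, 6.57 and 3.50 CPM in cycling cells, and at 5.23, 31.9, 7.33 and 5.30 CPM in the others. Fkbp5, a co-chaperone of steroid receptors, stood at 14.8, 53.8, 20.9 and 9.47 CPM, and at 22.9, 58.5, 18.0 and 13.8 CPM. All 3 peaked at dpc16 in both classes of cells. The dpc16 difference of Pyy was 2.89 on the log2 scale and 3.59 without follicle-marker cells. Prlr, the prolactin receptor, had 352 UMIs at dpc16 against 144 in NP, a log2 difference of 0.99, and Cish, another feedback inhibitor of the pathway, a difference of 0.97, so both lay just under 2-fold.

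Akr1c18, a dehydrogenase that inactivates progesterone, was higher in cycling than in other cells at dpc16, dpp6 and dpp40, and lower in NP. It was held at 85.9, 566, 285 and 262 CPM in the cycling cells of NP, dpc16, dpp6 and dpp40, and at 127, 232, 177 and 77.0 CPM in the other cells. At dpc16 34.7% of cycling cells held a UMI of it, against 9.83% in NP, and of the cells outside the rule 23.7% did, against 11.4%. The log2 difference over NP at dpc16 was 2.72 (2.55 to 2.90) in cycling cells and 0.87 in the others. Of the Akr1c18 UMIs in dpc16 cycling cells, 16.6% came from 5 cells. The later excess at dpp40 rested on fewer cells, with 43.3% of the UMIs in dpp40 cycling cells held by 5 cells.

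The remaining genes with the largest excess at dpc16 were Ccl1, Hbb-bt, Lsmem1, Tgm3, Stfa3, Mmp2, Cck and Spink2. Tgm3, a transglutaminase of the cornified envelope, stood at 16.8, 87.0, 13.6 and 12.8 CPM in cycling cells of the 4 states, and Mmp2, a gelatinase, at 22.0, 84.2, 19.0 and 18.1 CPM. Both peaked at dpc16 in other cells as well, at 94.8 and 66.3 CPM. Stfa3, a cysteine protease inhibitor, Lsmem1, the peptide hormone Cck and the protease inhibitor Spink2 were 4.55-, 7.31-, 3.71- and 3.62-fold higher. On the log2 scale these differences were 2.19, 2.87, 1.89 and 1.86, and in other cells 2.74, 2.16, 0.59 and 0.78. Without follicle-marker cells Cck had 62 UMIs, against 4 in NP, or 11.2-fold. Ccl1 (84.4%) and Hbb-bt (96.6%) drew most of their UMIs in dpc16 cycling cells from 5 cells. Without cycling cells carrying blood cell markers the Hbb-bt difference was -0.31, against 3.86 with them.

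Lower at dpc16 were Ifitm6, Hist1h2ae, Lce1m, Wnt16, Lipm, Hist1h2al, 2310050C09Rik, Pik3ip1, Rps26-ps1, 4833423E24Rik, mt-Nd3 and Gm10263. Wnt16, a Wnt ligand, was held at 36.5, 9.87, 11.7 and 24.5 CPM in the cycling cells of NP, dpc16, dpp6 and dpp40, and at 18.6, 4.95, 6.80 and 13.2 CPM in other cells. It was lower than in NP at each later state in both classes, and 6.76% of dpc16 cycling cells held a UMI of it, against 20.9% in NP. Pik3ip1, an inhibitor of PI3 kinase, and Lipm, an epidermal lipase, were 3.02- and 3.52-fold lower. Their log2 differences were -1.59 and -1.82, and in other cells -1.30 and -0.71. Ifitm6 drew 79.9% and Lce1m 68.8% of their UMIs in NP cycling cells from 5 cells. The Lce1m difference of -1.92 was -0.72 without cells carrying follicle markers. That of 4833423E24Rik was -1.49 in all cycling cells and -0.47 in Krt5+Krt14-dominant ones. Rps26-ps1, Gm10263 and the histone genes share sequence with close copies, so their counts are uncertain.

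**Figure D4:**
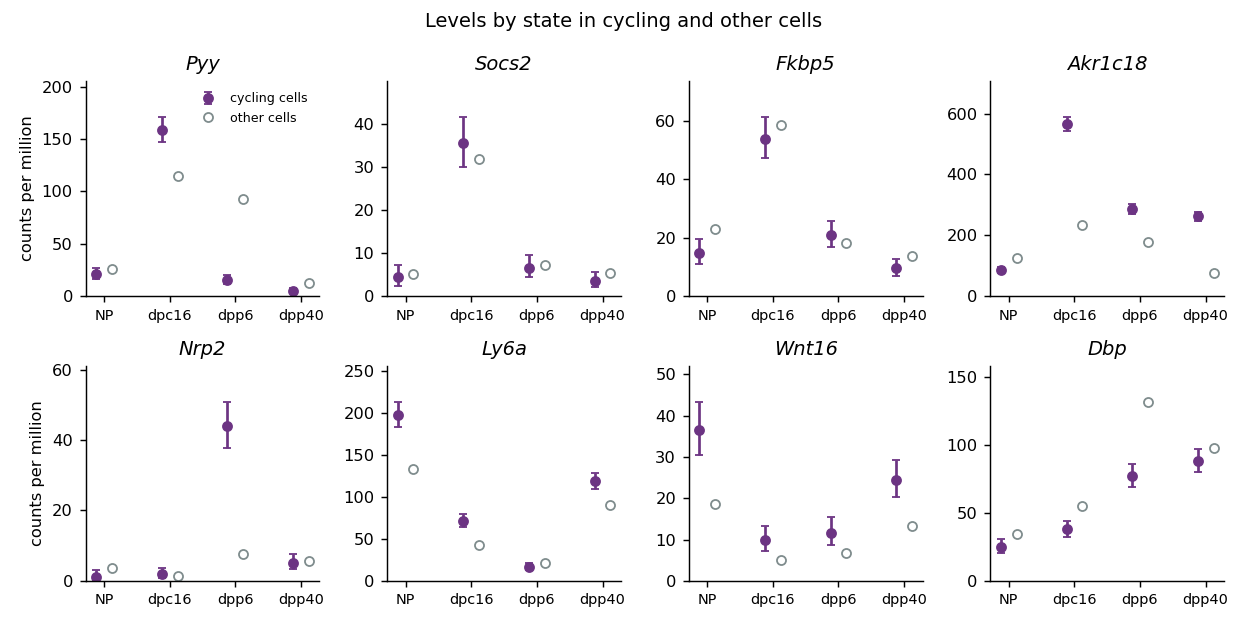
Levels of 8 genes (CPM, linear axis) in cycling cells (filled points, with 95% counting intervals) and other cells (open points) of the NP, dpc16, dpp6 and dpp40 libraries. Pyy, Socs2, Fkbp5 and Akr1c18 are highest at dpc16 in cycling cells, Nrp2 at dpp6, Ly6a and Wnt16 in NP, and Dbp at dpp40.

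The dpp6 library held more cycling cells with hair follicle markers than the others. At least 5 UMIs of bulge and outer root sheath markers were found in 79, 67, 179 and 121 cycling cells of NP, dpc16, dpp6 and dpp40, or 18.9%, 12.2%, 40.1% and 23.7%, and in 23.6%, 10.7%, 32.9% and 23.8% of the cells outside the rule. At 3000 UMIs per cell, at least 2 such UMIs were held by 23.0%, 17.6%, 41.7% and 24.2% of cycling cells, and by 32.0%, 16.4%, 36.2% and 29.0% of the others. Hair matrix and inner root sheath markers reached 5 UMIs in 0, 0, 13 and 1 cycling cells. In dpp6 these were 13 of 31 cells with such markers, so 41.9% (24.6 to 60.9) of them were cycling.

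Of 6 tested genes of the bulge and outer root sheath list, 3 were past 2-fold higher at dpp6, against 2.28% of all genes tested. Lhx2 and Lgr5 belong to that list, so their levels restate the counts above and add no further support. Lhx2, a stem cell factor of the bulge, stood at 23.1, 13.4, 122 and 29.2 CPM in cycling cells of the 4 states, and at 52.1, 25.6, 101 and 49.3 CPM in the others, and Lgr5, a marker of dividing follicle cells, at 8.39, 3.29, 28.2 and 9.06 CPM in cycling cells. Sox9, which marks the outer root sheath, had 725 UMIs at dpp6 against 279 in NP, a log2 difference of 1.13. The largest excess at dpp6 was that of Mfap2, Basp1, Nrp2, Bgn, Cldn10 and Bcl2a1b. Nrp2, a receptor for semaphorins and VEGF, stood at 1.16, 1.88, 44.0 and 5.15 CPM in cycling cells and at 3.64, 1.48, 7.66 and 5.72 CPM in the others. Without follicle-marker cells the dpp6 difference was 4.67 for Nrp2, against 5.25 with them, and 3.55 for Cldn10, against 3.67. It was 2.02 for Basp1, against 5.39, 2.42 for Bgn, against 4.16, and 3.53 for Mfap2, against 5.54. This removal left cells with upper follicle markers in. The upper follicle list differed from NP by 0.88 at dpp6 in all cycling cells and by 1.42 without follicle-marker cells. In the cells outside the rule it differed by 0.48. Mfap2 and Basp1 had 2 UMIs each in NP, so their intervals ran from 3.66 to 8.61 and from 3.50 to 8.46. Bcl2a1b drew 61.5% of its UMIs in dpp6 cycling cells from 5 cells.

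Lowest at dpp6 relative to NP were Ly6a, Hist1h2ap, Hbb-bs, Serpinb12, Ly6c1 and Hba-a2. Ly6a (Sca-1), a surface protein of interfollicular and upper follicle basal cells, was held at 198, 71.5, 16.3 and 118 CPM in the cycling cells of NP, dpc16, dpp6 and dpp40, and at 133, 42.8, 20.9 and 90.4 CPM in other cells. Its log2 difference at dpp6 was -3.60 with all cycling cells and -3.21 without follicle-marker cells. The related Ly6c1 was 7.45-fold lower and the protease inhibitor Serpinb12 7.53-fold lower, also at dpp40 at 5.80-fold. In Krt5+Krt14-dominant cycling cells alone the Serpinb12 difference was -2.23 on the log2 scale at dpp6 and -0.11 at dpp40. Hist1h2ap stood at 659, 408, 54.8 and 305 CPM in cycling cells. The globin messages Hbb-bs and Hba-a2 were lower at dpp6 in cycling and in other cells, by -3.41 and -2.62 in cycling cells and by -2.22 and -1.55 in those without blood cell markers, and the globin copies are close in sequence. Of the spinous list 5 of 7 tested genes were past 2-fold lower and 1 past 2-fold higher at dpp6, with a median of -1.79 and a summed difference of -1.75. Within Krt5+Krt14-dominant cycling cells the sum differed by -0.45 and within Krt1+Krt10-dominant ones by -0.44, and the Krt1+Krt10-dominant cells were 27 of 412 at dpp6, against 73 of 408 in NP.

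At dpp40 the cycling cells were closest to NP, with 67 of 6785 genes or 0.987% past 2-fold, 0.531% higher and 0.457% lower. The genes with the largest excess were Slc16a3, Dbp, Slc25a25, Epgn, Bhlhe40 and Akr1c18. Dbp, an output gene of the circadian clock, stood at 25.2, 37.9, 76.9 and 87.7 CPM in the cycling cells of NP, dpc16, dpp6 and dpp40 and at 34.2, 55.2, 132 and 97.7 CPM in the others, and the clock-linked repressor Bhlhe40 at 14.5, 18.3, 50.6 and 44.5 CPM. Epgn, an EGF receptor ligand, stood at 26.3, 53.6, 50.6 and 87.3 CPM, and the lactate transporter Slc16a3 at 4.63, 5.64, 11 and 17.3 CPM. Their dpp40 differences were 1.73 and 1.90 on the log2 scale, and 1.40 and 1.68 in other cells. Of 13 immediate early genes 3 passed 2-fold higher, namely Hspa1a (1.41), Atf3 (1.17) and Ier3 (1.01), with a median of 0.87 over the list. The summed list was 0.90 higher in cycling cells and 0.68 higher in the others. Hes1, a target of Notch, had 4115 UMIs at dpp40 against 1142 in NP, a difference of 1.36, and 1.21 in other cells. Lower at dpp40 were Hbb-bs, Serpinb12, Hba-a2, Gm10116, Gstp1 and Hist1h2ae, and Hbb-bs had 0 UMIs, against 287 in NP, which makes it at least 134-fold lower at a floor of 3 counts over the group. Without cells carrying blood cell markers it had 0 UMIs, against 119 in NP, or at least 56.5-fold lower at the same floor. Of its UMIs in NP 60.3% came from 5 cells, and the Hba-a2 difference of -2.09 was -1.01 without the blood-marker cells. In the cells outside the rule Hbb-bs stood at 662 CPM in NP and 0.23 CPM at dpp40, so its fall was not particular to cycling cells.

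Cells of other lineages were a small part of the cycling cells. At least 20 UMIs of Langerhans and myeloid markers were held by 7, 14, 7 and 7 cycling cells of NP, dpc16, dpp6 and dpp40, which was 6.54%, 7.37%, 3.08% and 6.67% of all cells with so many. T cell markers at that level were found in 5, 6, 5 and 5 cycling cells, or 12.2% (4.08 to 26.2), 6.90% (2.57 to 14.4), 6.85% (2.26 to 15.3) and 9.62% (3.20 to 21.0) of such cells. Melanocyte and fibroblast markers reached 5 UMIs in 1 cycling cell each, both at dpp6, and endothelial and Merkel cell markers in none. Taking 3 cells as the limit that a count of 0 allows, up to 0.719%, 0.548%, 0.673% and 0.588% of cycling cells could reach 5 UMIs of either list, which does not limit cells of these types with fewer UMIs. Cells with at least 50 UMIs of granular markers were cycling in 2 of 136, 2 of 97, 1 of 98 and 4 of 223 cases.

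Tbx3, the T-box factor that the reporter follows, was sparse in cycling cells and highest at dpc16. Among Krt5+Krt14-dominant cells it was held at 5.76 (3.07 to 9.85), 13.6 (10.0 to 18.0), 3.68 (1.96 to 6.29) and 4.92 (3.01 to 7.60) CPM by cycling cells of NP, dpc16, dpp6 and dpp40, and at 4.19, 9.20 (8.31 to 10.2), 3.37 and 2.26 (1.78 to 2.82) CPM by the others. The intervals of the 2 classes met at dpc16 and did not at dpp40. A UMI was found in 3.88%, 9.07%, 3.12% and 4.38% of the cycling cells and in 2.02%, 4.04%, 1.68% and 1.31% of the others, whose median depth was lower. At 3000 UMIs per cell these shares were 1.23%, 4.75%, 1.05% and 0.88%, and 1.30%, 2.65%, 0.98% and 0.72%. Cells with Langerhans markers, which serve as background, held a Tbx3 UMI in 1.87%, 5.26%, 0.44% and 1.90% of cases, so shares near these cannot be read as expression. EGFP was found in 1.19%, 0.60%, 2.08% and 0.88% of Krt5+Krt14-dominant cycling cells and in 0.86%, 0.59%, 0.94% and 0.89% of the others, while cells with granular markers held it in 24.3%, 27.8%, 24.5% and 17.0% of cases.

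The bulk libraries gave a measure of the 6 genes that had no part in choosing the cells. Values are FPKM (fragments per kilobase of transcript and 1000000 fragments), tested with limma on log2(FPKM + 1) with Benjamini-Hochberg adjustment over 11497 genes, those averaging 1 FPKM or more. In RNA from sorted populations, fewer cycling cells and less RNA per cell cannot be told apart. The labels do not tie each library to its own mouse, so the p-values reflect spread among libraries, and this may be technical. Libraries are numbered by column order.

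At dpc16 Tbx3 cKO libraries 1, 2 and 3 held 28.7, 33.2 and 56.7 FPKM of Top2a, WT dpc16 libraries 11.4, 21.3 and 55.6 FPKM, and WT NP libraries 55.7, 73.3 and 32.8 FPKM. Cdk1 stood at 18.0, 22.2 and 45.8 FPKM in cKO, 17.2, 14.5 and 65.0 FPKM in WT dpc16 and 62.2, 71.4 and 34.0 FPKM in NP. For both genes 2 of 3 WT dpc16 libraries lay below every NP library, and library 3 lay within the NP range, so the groups overlapped. Mki67 stood at 5.80, 9.11 and 13.8 FPKM in cKO, 4.49, 7.39 and 21.4 FPKM in WT dpc16 and 13.4, 18.8 and 15.1 FPKM in NP. Birc5 stood at 5.95, 6.08 and 20.3 FPKM, 3.95, 6.10 and 26.9 FPKM, and 23.2, 23.0 and 11.2 FPKM in the same groups. For Mki67 and Birc5 WT dpc16 library 3 lay above every NP library. Ube2c stood at 18.0, 22.6 and 58.0 FPKM in cKO, 12.3, 12.8 and 50.9 FPKM in WT dpc16 and 33.4, 52.0 and 23.1 FPKM in NP. Cenpa stood at 23.7, 27.9 and 53.6 FPKM in cKO, 13.6, 17.3 and 43.3 FPKM in WT dpc16 and 33.6, 51.1 and 23.5 FPKM in NP. In all 6 genes library 3 was the highest of the WT dpc16 group and also of the cKO group.

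WT dpc16 libraries were lower than WT NP libraries on average in all 6 genes, with none past the threshold of 0.05. The log2 difference was -1.06 ± 0.50 (SE, limma adjusted p = 0.583) for Top2a, -1.03 ± 0.54 (adjusted p = 0.622) for Cdk1, -0.95 ± 0.64 (adjusted p = 0.717) for Birc5, -0.74 ± 0.57 (adjusted p = 0.758) for Ube2c, -0.72 ± 0.46 (adjusted p = 0.702) for Mki67 and -0.63 ± 0.45 (adjusted p = 0.728) for Cenpa. Without WT dpc16 library 3 the 6 differences lay between -1.70 and -1.11 and the adjusted p between 0.213 and 0.365. Without WT dpc16 library 1 they lay between -0.77 and -0.28, with adjusted p between 0.949 and 0.988, without WT dpc16 library 2 between -0.98 and -0.43 and without NP library 2 between -0.83 and -0.35. Of all genes tested 15 or 0.13% passed, 12 higher and 3 lower at dpc16. By the 6-gene rule the share of single cells was lower at dpc16 than in NP, 4.26% against 6.42%. The average bulk differences ran from -1.06 to -0.63. The first is a share of all captured epidermal cells and the second a level in sorted basal cells, so their sizes cannot be compared. Counted by the S phase list, dpc16 stood above NP, at 17.9% against 15.8% of cells. Only the bulk differences were open to a test, and none passed it.

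Between Tbx3 cKO and WT dpc16 libraries the 6 genes differed by less than the spread within the groups. The log2 difference was 0.64 (limma adjusted p = 0.569) for Top2a, 0.57 (adjusted p = 0.560) for Cenpa, 0.49 (adjusted p = 0.716) for Ube2c, 0.05 (adjusted p = 0.982) for Cdk1, 0.03 (adjusted p = 0.993) for Birc5 and -0.01 (adjusted p = 0.999) for Mki67. Without WT dpc16 library 3 they lay between 0.57 and 1.23, with adjusted p between 0.206 and 0.525. Without WT dpc16 library 1 they lay between -0.47 and 0.25, without WT dpc16 library 2 between -0.34 and 0.55 and without cKO library 3 between -0.50 and 0.35. In each of these 3 cases Birc5 and Cdk1 turned negative, at -0.50 to -0.21 and -0.34 to -0.22. Over all genes 247 or 2.15% passed, 141 higher and 106 lower in cKO. Tbx3 itself, the targeted gene, was at 1.65 to 4.89 FPKM in the cKO libraries, 15.3 to 23.0 FPKM in WT dpc16 and 6.38 to 8.96 FPKM in WT NP, so the labels and its values go together. Cd34, which the sort removed, was at 2.23 FPKM or less in every library. Krt1 stood at 160 to 427 FPKM in cKO, 1065 to 2027 FPKM in WT dpc16 and 1268 to 1461 FPKM in NP libraries. It was thus lower in cKO, while the WT dpc16 and NP ranges overlapped. The fall in cKO was not particular to Krt1. Krt10 stood at 604 to 1088 FPKM in cKO and 1606 to 4831 FPKM in WT dpc16. The basal keratin Krt5 stood at 5822 to 10254 FPKM in cKO and 12495 to 13027 FPKM in WT dpc16. Krt14 stood at 4260 to 7408 FPKM in cKO and 8206 to 8496 FPKM in WT dpc16. Whether the Krt1 and Krt10 RNA came from spinous cells in the sort or from the basal cells themselves was not tested. The part of any spinous cells in the values of the 6 genes was not tested either.

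**Figure D5:**
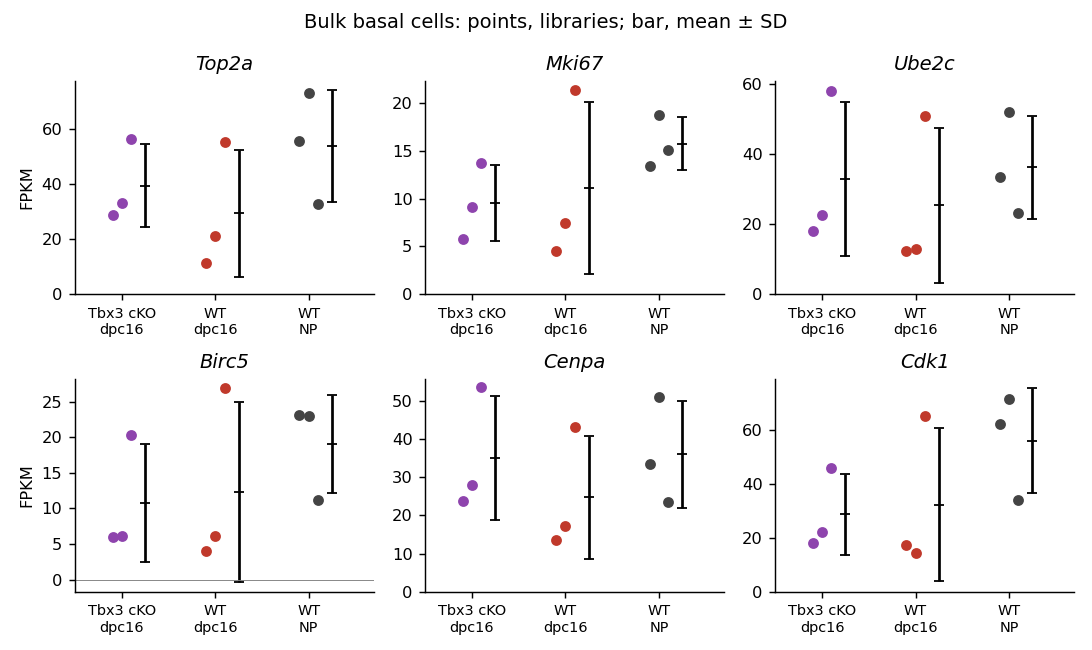
FPKM of the 6 genes of the rule in each bulk library (points, in column order) of the Tbx3 cKO dpc16, WT dpc16 and WT NP groups, with the mean ± SD of 3 libraries beside them. Library 3 of both dpc16 groups lies above the other 2, for example at 56.7 and 55.6 FPKM for Top2a.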

How the data were processed

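Single-cell RNA was measured in 4 libraries and bulk RNA in 9. The deposited single-cell files hold raw counts of UMIs per gene and barcode, with an EGFP gene added, and Cell Ranger 2.2.0 and build mm10 are named in the submitters' processing notes. The bulk table holds FPKM made by the authors, and per the submitters' processing notes cutadapt 1.14, TopHat2, Cufflinks 2.2.1 and Cuffdiff were used. The depth behind the FPKM is unknown, and so the precision of low values is too. WT columns were assigned to dpc16 by exclusion, since the remaining headings name NP and cKO. Every column of values was used. Per the labels' protocols, skin was digested with trypsin at 37 °C and the bulk RNA went into TruSeq Stranded mRNA libraries.

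Cells were filtered and counted in Python 3.11.15 with numpy 2.4.6 and scipy 1.17.1. UMIs were summed over the cells of a class and given as CPM, with exact Poisson intervals, and fold changes with exact conditional intervals. Levels of cells thinned to a fixed number of UMIs used seed 1. Doublets were scored with scrublet in scanpy 1.11.5 at an expected rate of 6%, and none were removed. No clustering was done. Bulk values were tested as log2(FPKM + 1) with limma 3.58.1 in R 4.3.3 (3 group means over 9 libraries, trend, 2-sided, threshold 0.05), a scale that understates changes of low genes. The programs were tested on simulated data with known changes.

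The genes named were the 6 genes of the rule, Tbx3, EGFP and 4 keratins, up to 4 members with the most UMIs of each cell cycle list, the 12 largest differences each way at dpc16, the 6 each way at dpp6 and dpp40, and the 12 each way between cycling and other Krt5+Krt14-dominant cells, and members of the fixed lists past 2-fold. Krt77, Notch3, Grhl3, Prlr, Cish, Lhx2, Lgr5, Sox9 and the other members of the lists that fall outside this were named after their values were seen. The cells, the lists and the rule were chosen with earlier results of these data known. Alternatives were other thresholds, depths, filters, doublet cuts, cell classes, scalings, pseudocounts, a replicate block and leaving out libraries.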

Additional observations from a re-analysis of the deposited data

How the results depend on the processing

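The order of the states in the share of cycling cells (NP, dpp40, dpp6, dpc16 from high to low) held in 9 of 11 settings, the exceptions being at least 10 UMIs and the S phase list. In NP, dpc16, dpp6 and dpp40 the share was 7.55%, 5.70%, 6.16% and 7.03% with at least 3 UMIs, 4.71%, 3.06%, 3.84% and 4.81% with at least 10, and 15.8%, 17.9%, 19.3% and 24.8% with the S phase list. Thinning gave 5.07%, 3.33%, 3.80% and 4.49% at 3000 UMIs, 3.85%, 2.31%, 2.68% and 3.37% at 2000, and 9.01%, 6.86%, 6.98% and 7.29% at 5000. Without the 6% of cells with the highest doublet score dpc16 was at 3.89%. Krt5+Krt14-dominant cells were 88.5%, 96.3%, 96.1% and 94.8% of keratin-rich cycling cells with a boundary of 0.3, 77.9%, 87.3%, 88.8% and 85.1% with 0.7, 89.9%, 96.7%, 96.5% and 94.6% at 3000 UMIs, and 94.99% at dpc16 without high doublet scores. NP was lowest in each of these settings.

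Genes past 2-fold at dpc16, dpp6 and dpp40 numbered 377, 786 and 251 with at least 30 UMIs and 50, 104 and 23 with at least 300. With Krt5+Krt14-dominant cycling cells alone dpp6 gave 161 and dpp40 44 genes, and without follicle-marker cells, a setting chosen after seeing the data, dpp6 gave 180. The dpp6 split of 149 higher and 157 lower became 101 and 60 in Krt5+Krt14-dominant cells.

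In bulk, WT dpc16 over NP gave 9 genes and cKO over WT dpc16 87 without a filter on low FPKM, and cKO over WT dpc16 118 with its 2 groups alone. Leaving out single libraries gave 5 to 15 and 41 to 390 genes. The first count was 7 and 9 when the WT dpc16 libraries 1 and 3 were dropped, 8 and 5 when NP 2 and 3 were, and 8 when cKO 1 was. The second was 65, 41 and 57 when WT dpc16 1, 2 and 3 were dropped, 157 and 155 when NP 1 and 2 were, and 56, 80 and 390 when cKO 1, 2 and 3 were. With the replicate number as a block the counts were 10 and 202. Same-numbered libraries correlated at -0.21 to 0.36, and 7 of 18 correlated best with their own number. Those of cKO and WT dpc16 correlated at 0.31, 0.07 and 0.36, so a link between them is not shown to be absent, but the numbers were not taken as pairs. None of 180 alternative values of the 6 genes passed the threshold, and the lowest adjusted p from limma was 0.206. The cause of these movements was not tested.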
